A study of Mus musculus with 2 samples.

Results

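The genes described here encode 10 G-protein-coupled receptors (GPCRs) of glial cells, of 31053 genes counted in each library: Gpr17, Gpr37, Gpr37l1, Gprc5b, Adgrg1, Lpar1, S1pr1, S1pr5, Adora1 and Ednrb. They were picked by name, and each had 1 row in both libraries. The samples were cells from the lateral striatum of male C57/BL6 mice whose middle cerebral artery had been occluded for 60 minutes on postnatal day 10 (MCAO), taken after 2 weeks of reperfusion. Cells had been sorted by FACS for A2B5, O4 or both, surface antigens of early and of later oligodendrocyte-lineage cells. The ipsilateral library came from the striatum on the occluded side and the contralateral library from the opposite striatum, so the contralateral side is not tissue of an unoperated animal. Each library pooled 3 animals, and with 1 library per side no difference between sides has a replicate check, no test was made and every interval is a 95% interval for counting error only.

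GPCRs are membrane proteins with a bundle of transmembrane helices that pass the binding of a ligand on to heterotrimeric G proteins, RGS proteins and arrestins. In the oligodendrocyte lineage, Gpr17 is known as a receptor that is switched on transiently in differentiating precursors and that holds back their maturation. Other receptors of the set read lysophospholipids, endothelin or adenosine, or have ligands that are still debated.

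On GRCm38 (mm10) in GENCODE M21, all 10 are protein-coding genes. Gpr17 lies at chr18:31942997-31949636, Gpr37 at chr6:25665878-25690729, Gpr37l1 at chr1:135160234-135167681, Gprc5b at chr7:118972047-118995211 and Adgrg1 at chr8:94974751-95014217. Lpar1 lies at chr4:58435255-58553898, S1pr1 at chr3:115710433-115715072, S1pr5 at chr9:21242912-21248443, Adora1 at chr1:134199223-134235431 and Ednrb at chr14:103814625-103844402. All but Adgrg1 are on the minus strand. Annotated genes overlap Gpr17 (Lims2), Gprc5b (Iqck), S1pr5 (Gm48303) and Adora1 (Mybph) on the opposite strand, and Lpar1 (Mir3095, Gm12577) on its own strand. Whether the counting used strand is not given in the sources used here, so UMIs of these 5 genes and of their partners may not be fully separated. At most 0.927% of a member's 31-base words occurred in transcripts of another gene, the highest share being that of Gpr37.

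The contralateral library held 36063045 UMIs (counts of distinct captured RNA molecules) in 2066 barcodes, the ipsilateral library 54788795 in 2775, and the pair shared 0 barcodes. With at least 500 detected genes and at most 15% mitochondrial UMIs, 1913 contralateral and 2505 ipsilateral cells were kept. Clusters were named by marker genes that include none of the 10 receptors, and the name "-like" is used because it rests on RNA alone. Precursor-like cells numbered 312 contralaterally and 406 ipsilaterally, committed-like cells 73 and 154, newly formed-like cells 36 and 74, and mature-like cells 524 and 953. Each stage was the one in which its own marker list reached its highest summed level, in both libraries. The same lists had named the clusters, so this is no separate check of the names. The 8 precursor markers summed to 9401 and 8402 CPM (counts per 1000000 UMIs) in precursor-like cells, contralateral first here and throughout. The 11 mature markers summed to 37548 and 37787 CPM in mature-like cells. In newly formed-like cells the 8 newly formed markers summed to 5325 and 6889 CPM, the 7 committed markers to 7260 and 7402 CPM, and the mature markers to 5730 and 4725 CPM. The sorted libraries also held neuroblast-like cells (29.7% and 20.8% of kept cells), endothelial-like cells (9.62% and 5.15%) and astrocyte-like cells (6.12% and 4.71%). A cluster that carried both mature and committed markers, with 64 and 81 cells and a median of 46987 UMIs, was left out of every stage. Levels below are CPM of the summed UMIs of a stage, and levels of different genes are not compared, because CPM were not set per length.

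RefSeq promoter windows on GRCm38.p6 were used for 8 of the 10 genes. S1pr1 had no window, and Gpr17 was left out of this step and is not reported here. Of the windows used, each the 250 bases before an annotated start, 5 held no base of a GENCODE exon. These are shown because 2 belong to genes that were highest in mature-like cells (Gprc5b, Lpar1) and 3 to genes that were highest before maturity (Gpr37l1, Adora1, Ednrb). Capitals mark matches, on either strand, to the words searched: AACAAT, a word that SOX factors bind, its relative ACAAAG, the E-box CAGCTG, the further E-box CAGATG, the TATA box written TATAAA, plus the GC box written GGGCGG. No match overlaps another. The Lpar1 window lies in an intron of its longer transcripts and the Ednrb window inside the annotated span of Ednrb, outside its exons, while the other 3 lie just upstream of their genes.
Gprc5b chr7:118995212-118995461, minus strand: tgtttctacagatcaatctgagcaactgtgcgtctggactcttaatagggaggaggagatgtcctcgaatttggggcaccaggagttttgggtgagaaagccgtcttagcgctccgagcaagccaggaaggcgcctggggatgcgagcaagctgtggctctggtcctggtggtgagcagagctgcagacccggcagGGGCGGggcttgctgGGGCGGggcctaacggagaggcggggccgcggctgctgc
Lpar1 chr4:58499404-58499653, minus strand: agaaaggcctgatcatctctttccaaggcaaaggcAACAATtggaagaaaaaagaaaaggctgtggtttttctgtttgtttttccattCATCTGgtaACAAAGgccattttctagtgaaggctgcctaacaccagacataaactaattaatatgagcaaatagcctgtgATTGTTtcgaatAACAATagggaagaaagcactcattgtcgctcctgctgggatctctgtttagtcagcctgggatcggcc
Gpr37l1 chr1:135167682-135167931, minus strand: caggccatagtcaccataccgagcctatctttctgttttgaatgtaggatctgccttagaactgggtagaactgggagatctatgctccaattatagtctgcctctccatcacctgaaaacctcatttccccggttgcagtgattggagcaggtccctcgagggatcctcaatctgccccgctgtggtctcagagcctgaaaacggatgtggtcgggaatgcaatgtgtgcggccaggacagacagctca
Adora1 chr1:134235458-134235707, minus strand: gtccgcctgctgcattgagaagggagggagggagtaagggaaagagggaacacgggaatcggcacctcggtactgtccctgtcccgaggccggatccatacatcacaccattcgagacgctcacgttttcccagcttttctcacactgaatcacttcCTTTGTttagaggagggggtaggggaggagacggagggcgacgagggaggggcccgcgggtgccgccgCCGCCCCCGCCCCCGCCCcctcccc
Ednrb chr14:103843702-103843951, minus strand: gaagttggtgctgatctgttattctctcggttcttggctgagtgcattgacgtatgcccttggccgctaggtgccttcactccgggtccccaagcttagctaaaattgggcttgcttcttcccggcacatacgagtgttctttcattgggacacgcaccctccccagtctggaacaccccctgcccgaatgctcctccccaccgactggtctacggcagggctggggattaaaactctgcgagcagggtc
Among all 32851 windows of this length, 9.42% held AACAAT, while the other SOX-type word, ACAAAG, was found in 16.5%. The E-box CAGCTG was found in 4271 windows, while the other E-box, CAGATG, was found in 14.4%. The TATA box had a match in 12.4% of windows, the GC box in 32.7%. The Lpar1 window, 1 of 3 windows of this gene, held 3 matches to AACAAT, 1 to the SOX-type word ACAAAG, and a single match to the E-box CAGATG. Its share of G or C was 41.6%, against a median of 52.4% over all windows. The Gprc5b window held 2 GC boxes and the Adora1 window 3, next to 1 ACAAAG, whereas the Gpr37l1 and Ednrb windows held no match. A match describes letters and is not a binding site.

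Gpr17 peaked in committed-like cells in both libraries and was almost lost in mature-like cells. Its level was 730.0 and 735 CPM in precursor-like cells, 2938 and 2442 CPM in committed-like cells, 1250.4 and 995 CPM in newly formed-like cells, and 19.5 and 22.9 CPM in mature-like cells. The Poisson intervals of the 4 stages did not overlap within either library, and the highest level was 151-fold the lowest contralaterally and 107-fold ipsilaterally. After each cell was thinned to 5000 UMIs, a committed-like cell held a median of 15.5 and 12 Gpr17 UMIs, a newly formed-like cell 5 and 5, a precursor-like cell 3 and 3, and a mature-like cell 0 and 0. At that depth all 72 and 149 committed-like cells had a Gpr17 UMI, as had 89.3% and 89.4% of precursor-like, 97.1% and 94.4% of newly formed-like and 8.65% and 9.42% of mature-like cells. Endothelial-like cells, a class in which the gene is not known to be expressed, had a Gpr17 UMI in 4.79% and 9.24% of thinned cells, at unthinned median depths of 8326.5 and 8638 UMIs. The intervals of the mature-like and endothelial-like shares overlapped in each library. They were 6.38 to 11.4% against 2.09 to 9.22% contralaterally, and 7.61 to 11.5% against 4.71 to 15.9% ipsilaterally. The mature-like share was thus not set apart from the endothelial-like share, nor from the astrocyte-like share of 1.92% (0.234 to 6.77) and 6.86% (2.80 to 13.6). It lay above the neuroblast-like share of 3.03% (1.74 to 4.87) and 5.22% (3.41 to 7.608), ipsilaterally by a narrow margin. Whether the mature-like UMIs are expression was not tested.

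Gpr37 and Gpr37l1, related receptors for which prosaposin fragments have been proposed as ligands, were expressed at opposite ends of the lineage. Gpr37 was low in precursor-like cells (11.5 and 15.1 CPM) and committed-like cells (21.7 and 15.2 CPM), reached 113 and 107 CPM in newly formed-like cells and was highest in mature-like cells, at 652 and 677 CPM. The intervals of its precursor-like and committed-like levels overlapped in each library, and the other neighbouring stages were apart. Gpr37l1, also an astrocyte receptor, held 831 and 707 CPM in precursor-like cells, 975 and 811 CPM in committed-like cells and 717 and 645 CPM in newly formed-like cells, then 11.8 and 12.9 CPM in mature-like cells. From newly formed-like to mature-like cells, Gpr37 was thus higher by 2.48 and 2.61 on the log2 scale of CPM + 5, and Gpr37l1 differed by -5.43 and -5.18.

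Of the lysophospholipid receptors, Lpar1 and S1pr5 were genes of late stages and S1pr1 was mainly a gene of cells outside the lineage. Lpar1, a receptor for lysophosphatidic acid, had 7.38 and 6.52 CPM in precursor-like cells, 16.7 and 4.74 CPM in committed-like cells, 244 and 220.1 CPM in newly formed-like cells and 596 and 602 CPM in mature-like cells. S1pr5, the sphingosine 1-phosphate receptor typical of oligodendrocytes, had 3.84 and 4.98 CPM, 2.90 and 3.16 CPM, 30.4 and 28.3 CPM and 143 and 136 CPM in the same order of stages. In newly formed-like cells Lpar1 stood at 40.9% and 36.6% of its own mature-like level, and S1pr5 at 21.3% and 20.8% of its own. The intervals of the precursor-like and committed-like levels overlapped for both genes in each library. S1pr1, known for its role in endothelial cells, had 24.5 and 12.7 CPM in precursor-like cells and at most 5.07 CPM in each later stage, against 565 and 567 CPM in endothelial-like and 458 and 394 CPM in astrocyte-like cells.

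Ednrb and Adora1 were both highest in precursor-like cells and low in committed-like cells. Ednrb, the endothelin B receptor, had 799 and 569 CPM in precursor-like cells, 17.4 and 14.5 CPM in committed-like cells, 66.3 and 31.05 CPM in newly formed-like cells and 2.10 and 2.81 CPM in mature-like cells. Adora1, the adenosine A1 receptor, had 108 and 86.3 CPM in precursor-like cells, 49.3 and 49.1 CPM in mature-like cells, and 25.0 and 9.04 CPM in newly formed-like cells. In committed-like cells it had 6 UMIs contralaterally (4.35 CPM) and 0 UMIs ipsilaterally, which allows up to 0.948 CPM at a floor of 3 counts. With barcodes called as doublets by Scrublet removed before clustering, contralateral Adora1 was instead lower in newly formed-like (10.4 CPM) than in committed-like cells (16.7 CPM).

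Gprc5b, an orphan receptor of class C, was highest in mature-like cells (209 and 175 CPM), with 36.6 and 24.0 CPM in precursor-like, 18.1 and 6.95 CPM in committed-like and 35.9 and 22.0 CPM in newly formed-like cells. Adgrg1, an adhesion receptor for matrix ligands that is known to keep precursors cycling, had 49.9 and 49.1 CPM in precursor-like, 10.9 and 9.48 CPM in committed-like, 42.9 and 22.8 CPM in newly formed-like and 23.3 and 25.7 CPM in mature-like cells. Its highest level was 4.59-fold and 5.18-fold its lowest among the stages, and was exceeded outside the lineage, at 178 and 172 CPM in astrocyte-like cells. Intervals of precursor-like and newly formed-like cells overlapped for Gprc5b in each library and for Adgrg1 contralaterally, and those of newly formed-like and mature-like cells for Adgrg1 ipsilaterally.

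**Figure D1:**
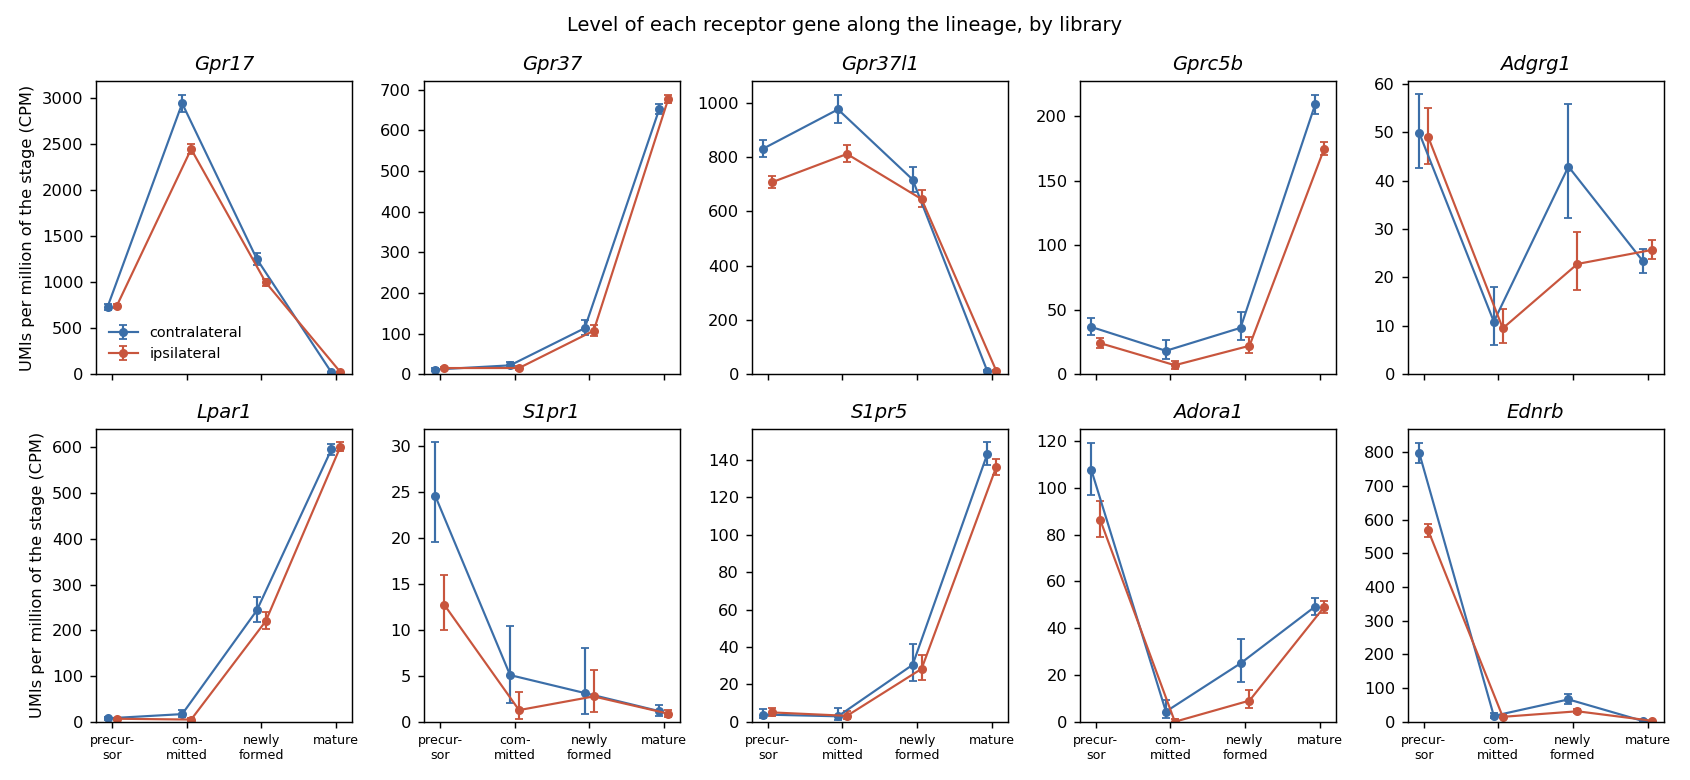
Level of each receptor gene (y axis, CPM of the UMIs summed over a stage, linear and starting at 0, with its own scale for each gene) in 4 stages (x axis) of the contralateral (blue) and ipsilateral (red) library; bars are 95% Poisson intervals for counting error. Gpr17 peaks in committed-like cells at 2938 and 2442 CPM, while Gpr37, Gprc5b, Lpar1 and S1pr5 are highest in mature-like cells.

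All 10 members had the same highest stage in both libraries, and 7 had the same order of all 4 stages. Of 9 members with at least 20 UMIs in the step from precursor-like to committed-like cells of the contralateral library, 3 were higher past 1.5-fold of CPM + 5 and 5 lower, against 8.46% and 26.7% of all genes tested. Of 10 ipsilateral members in that step, 1 was higher and 5 lower, against 6.51% and 22.3%. Gpr17 was higher in each library, and Gprc5b, Adgrg1, S1pr1, Adora1 and Ednrb were lower. The other contralateral genes that were higher, Gpr37 and Lpar1, had 50.0% and 43.5% of their committed-like UMIs in 1 cell. From committed-like to newly formed-like cells, 7 of 9 members were higher and 1, Gpr17, was lower in each library, against 10.1% and 14.3% of all genes contralaterally and 11% and 15.3% ipsilaterally. Not all of these 7 were higher under every alternative, as given above for Ednrb and Adora1. From newly formed-like to mature-like cells, 5 of 10 were higher in each library (backgrounds 11.6% and 10.9%), namely Gpr37, Gprc5b, Lpar1, S1pr5 and Adora1, and 4 contralateral and 3 ipsilateral members were lower (backgrounds 31.2% and 30.2%). The receptors had been picked for their known place in the lineage, so these counts describe them and single out no property of the set.

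Single cells showed overlap of early and late receptors within the newly formed-like stage. At 5000 UMIs per cell, 15 of 35 contralateral newly formed-like cells (42.9%, exact binomial interval 26.3 to 60.6) and 37 of 72 ipsilateral ones (51.4%, 39.3 to 63.3) held UMIs of both Gpr17 and Lpar1. The product of the separate shares of these genes was 44.4% and 51.2%, within both intervals. Gpr17 and Gpr37 were found together in 20.0% and 26.4% of these cells. In mature-like cells 83.8% and 85.7% held both Gpr37 and Lpar1, and 48.8% and 43.5% both Lpar1 and S1pr5. In precursor-like cells 83.0% and 76.9% held both Gpr17 and Ednrb, so that both were commonly detected in the same precursor-like cell. Ednrb had a UMI in 92.7% and 85.2% of precursor-like, 6.94% and 4.70% of committed-like and 0.385% and 1.52% of mature-like cells, against 3.59% and 4.20% in endothelial-like cells. Adora1 was detected in 40.3% and 32.1% of precursor-like and 20.96% and 19.6% of mature-like cells, in 0 of 72 and 0 of 149 committed-like cells, and in 0.599% and 0% of endothelial-like cells. Ednrb in mature-like and Adora1 in committed-like cells were thus at or below the endothelial-like share, which is not read as expression. Whether endothelial-like cells lack Ednrb was not tested. The intervals of Ednrb in committed-like cells (2.29 to 15.5% and 1.91 to 9.44%) overlapped those in endothelial-like cells (1.33 to 7.66% and 1.38 to 9.53%). S1pr5 was detected in 54.6% and 48.6% and Gprc5b in 63.8% and 59.1% of mature-like cells, against 94.1% and 92.8%, and 98.3% and 95.8%, without thinning. Thinning left out 12 and 20 precursor-like, 1 and 5 committed-like, 1 and 2 newly formed-like and 4 and 29 mature-like cells. Without thinning, a Gpr17 UMI was seen in 97.8% and 94.8% of precursor-like and in 35.1% and 38.7% of mature-like cells, whose median depths were 10165.5 and 12534.5 against 27261 and 28376 UMIs.

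**Figure D2:**
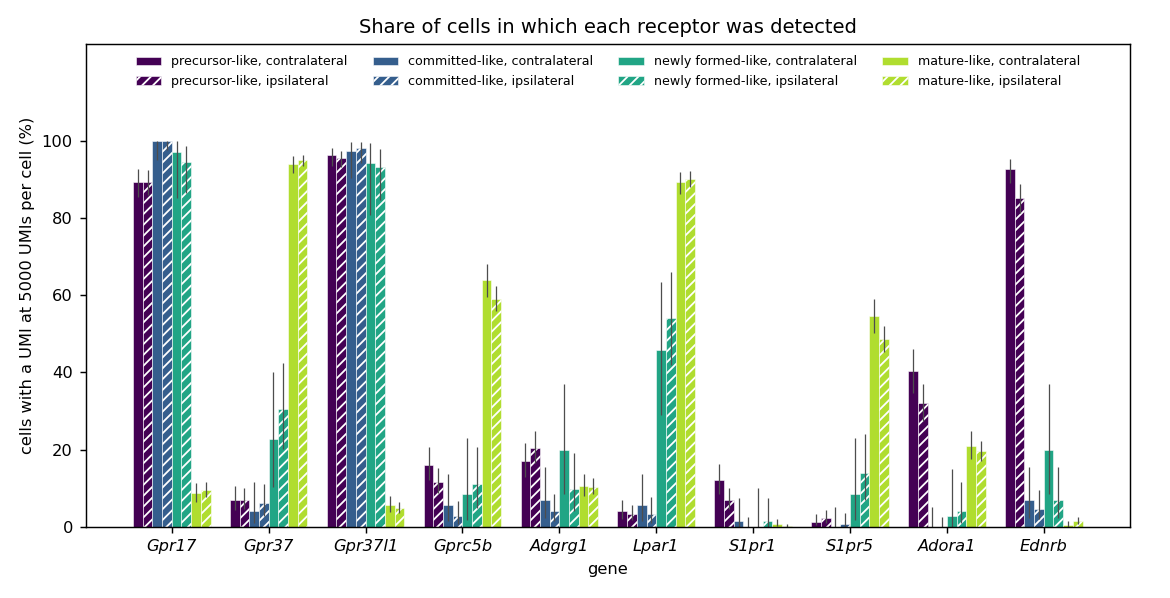
Share of cells with at least 1 UMI of each gene after thinning to 5000 UMIs per cell (y axis, percent), by stage (colour) and library (plain, contralateral; hatched, ipsilateral); lines are exact 95% binomial intervals. Gpr17 and Gpr37l1 are detected in at least 89.3% of cells of the 3 earlier stages, and Gpr37 and Lpar1 in at least 89.2% of mature-like cells.

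Across the named classes, 9 of 10 members had the same highest class in both libraries. Gpr37l1 was the exception, with committed-like cells highest contralaterally (975 CPM, against 906 CPM in astrocyte-like cells) and astrocyte-like cells highest ipsilaterally (856 CPM, against 811 CPM), with overlapping intervals in each library. Ednrb was also an astrocyte gene, at 435 and 521 CPM, and so was Gprc5b, at 120.3 and 109.9 CPM. Ipsilaterally the Ednrb interval in astrocyte-like cells (482 to 562 CPM) overlapped that in precursor-like cells (550 to 589 CPM), its highest class. Adgrg1 was found in 7 classes, with 98.95 and 115 CPM in endothelial-like and 69.0 and 73.0 CPM in neuroblast-like cells, and had 0 UMIs in the 14 and 15 mural-like cells. Of all S1pr1 UMIs in kept cells, 54.2% and 50.6% came from endothelial-like and 35.1% and 35.6% from astrocyte-like cells. In contrast, 84.3% and 87.7% of Gpr37 UMIs, 82.4% and 86.6% of Lpar1 UMIs and 83.0% and 86.3% of S1pr5 UMIs came from mature-like cells.

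**Figure D3:**
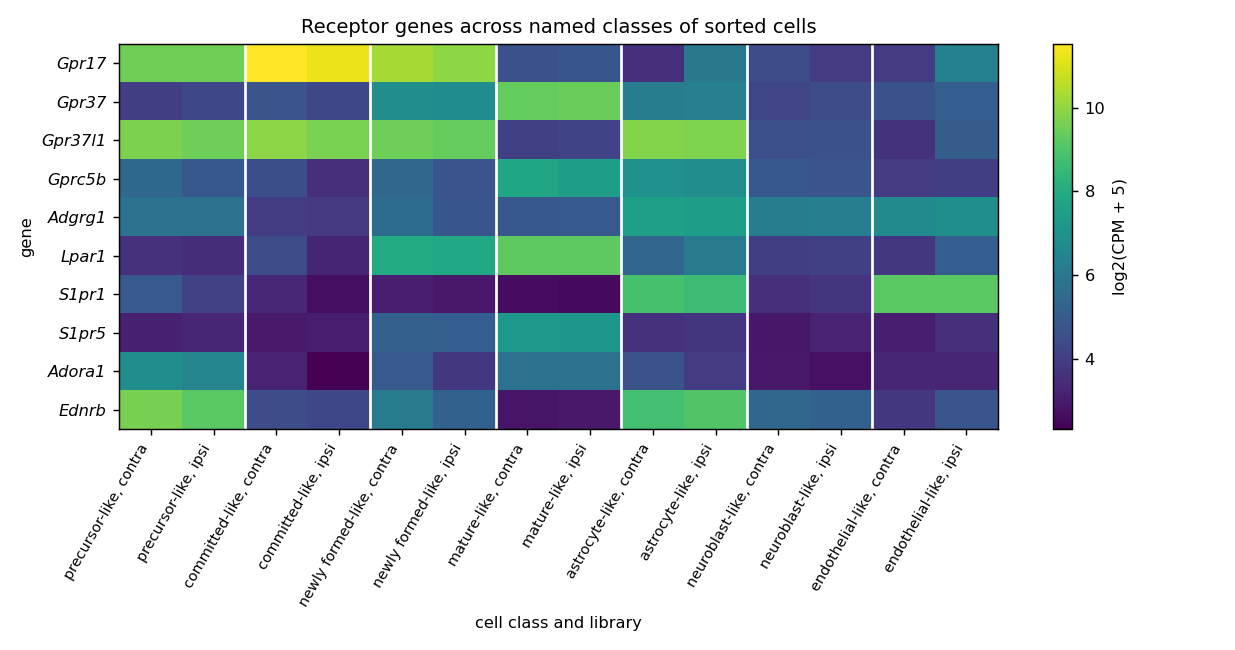
Level of each gene (rows, log2 of CPM + 5, colour) in 7 classes of cells, each in the contralateral and ipsilateral library (columns); colours are read along a row. S1pr1 is highest in endothelial-like cells, Adgrg1 in astrocyte-like cells, and the other 8 genes in lineage stages except Gpr37l1 ipsilaterally.

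Precursor-like cells fell into 3 clusters, formed without the 10 receptors, in which Ednrb and Adora1 had different levels. In the cluster led by Hes5 and Hes1 (218 and 194 cells) Ednrb stood at 988 and 935 CPM and Adora1 at 136 and 148 CPM. In the cluster led by Gap43 and Dll3 (74 and 163 cells) Ednrb stood at 478 and 360.3 CPM and Adora1 at 55.8 and 45.1 CPM. The cycling cluster led by Top2a (20 and 49 cells) had 387 and 325 CPM of Ednrb, and its Gpr17 level, 242 and 409.7 CPM, was below the 712 and 787 CPM of the Hes5-led and the 940.2 and 813 CPM of the Gap43-led cluster. Precursor-like cells with a UMI of Bmp4, a ligand gene switched on at commitment, as detected at 5000 UMIs per cell, were compared with those without (71 and 102 cells against 229 and 284), with levels taken from all UMIs. Gpr17 stood at 1189.6 and 1183 CPM in cells with Bmp4 and at 586 and 554 CPM in those without, whereas Adora1 stood at 51.8 and 59.5 against 126 and 96.3 CPM, and Ednrb at 685 and 471 against 827 and 611 CPM. Gpr17 was thus higher, and Ednrb and Adora1 lower, in precursor-like cells with Bmp4, on each side.

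Within mature-like cells the level of Lpar1 differed between clusters. The clusters led by Cxcl12, Zfp36 and Itih3, in which Opalin was 1318 to 1795 CPM, held 641 to 893 CPM of Lpar1. The clusters led by Plin3 and Hapln2, with 689 to 786 CPM of Opalin, held 416 to 478 CPM. Adgrg1 and Gpr17 had the same order, with 22.5 to 48.5 against 8.35 to 12.3 CPM and 18.3 to 45.3 against 8.35 to 15.2 CPM, while Gprc5b and S1pr5 overlapped between these groups of clusters (163 to 221 against 170.5 to 207 CPM, and 112.2 to 159.6 against 126 to 149 CPM). The cluster led by C4b and Serpina3n held 118 ipsilateral and 0 contralateral cells and had 415 CPM of Lpar1, 674 CPM of Gpr37, 166 CPM of S1pr5 and 65.8 CPM of Adora1. Its Lpar1 level lay beside those of the Plin3-led and Hapln2-led clusters, and its Adora1 level was above the 41.9 to 56.5 CPM of the other mature-like clusters. These clusters were made from the same cells, so the differences are descriptions.

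**Figure D4:**
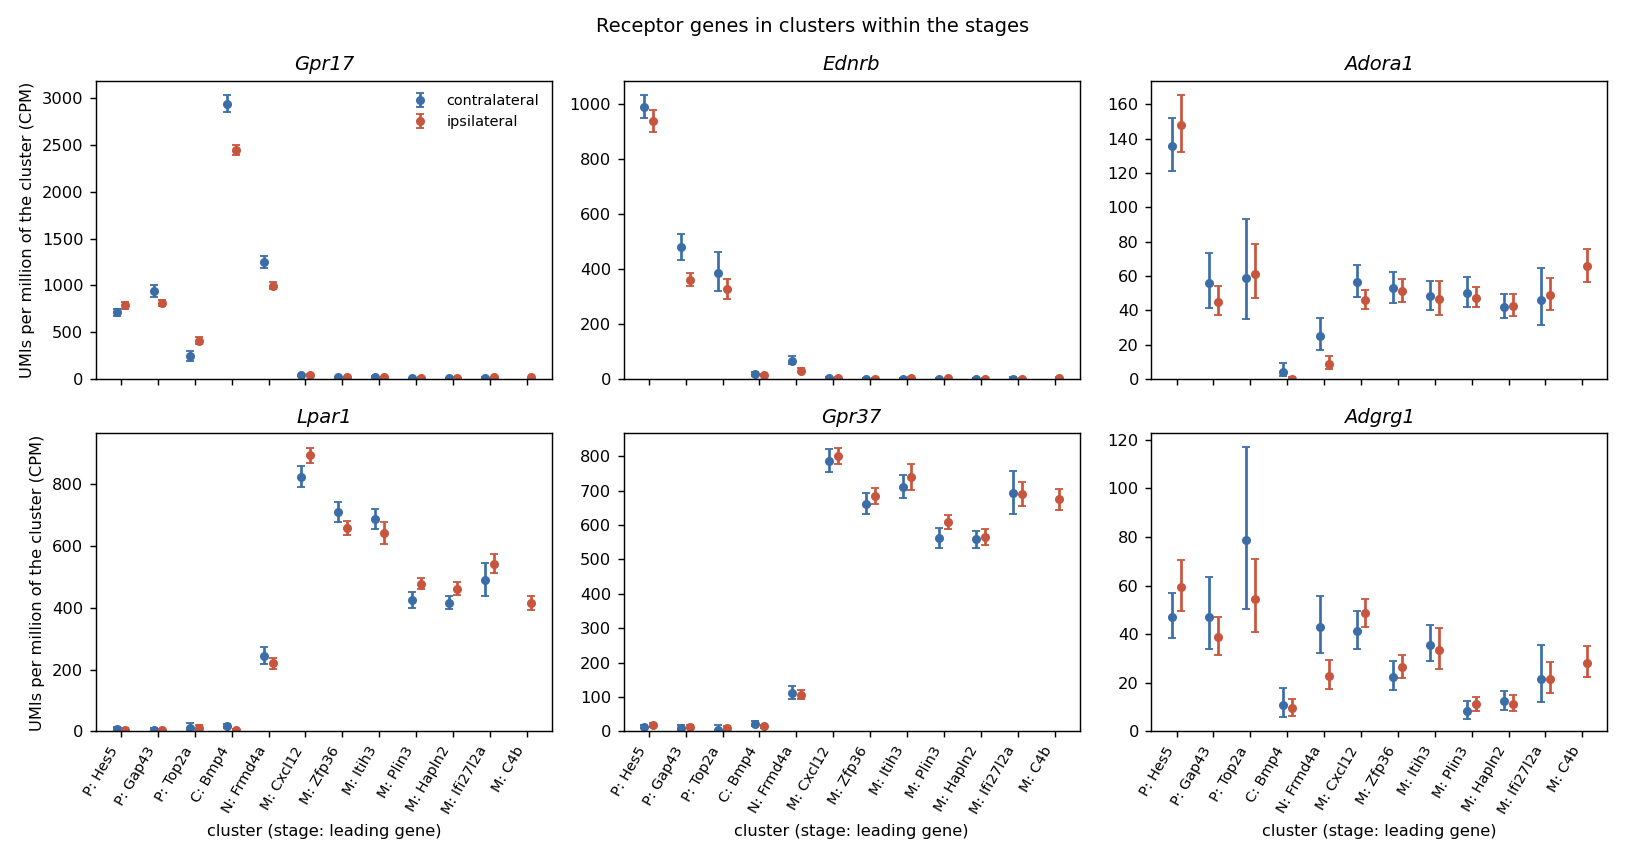
Level of 6 genes (y axis, CPM of the cluster, starting at 0) in clusters within the stages (x axis, P precursor-like, C committed-like, N newly formed-like, M mature-like, with the leading gene of the cluster), by library; bars are 95% Poisson intervals, and clusters with under 10 cells in a library are not drawn. Ednrb and Adora1 are highest in the Hes5-led precursor-like cluster, and Lpar1 is lower in the Plin3-led and Hapln2-led than in the Cxcl12-led mature-like cluster.

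Between the sides, the stage pattern of the receptors was nearly the same, and with the stages taken from clusters of both libraries together the members past 1.5-fold within a stage were lower ipsilaterally. That direction did not hold under 2 other ways of setting the stages: with each library clustered alone, Gpr37 (0.84) and S1pr5 (0.87) passed as higher ipsilaterally in newly formed-like cells, and with stages called cell by cell from the markers, Gpr37 (0.76) and Lpar1 (0.68) did so in precursor-like cells. Gprc5b (0.63) also passed as higher ipsilaterally when newly formed-like cells with at least 3 Pdgfra UMIs were left out. The median log2 ratio of the members with at least 20 summed UMIs was -0.17 in precursor-like (-0.05 over all genes), -0.27 in committed-like (-0.02), -0.33 in newly formed-like (-0.01) and 0.03 in mature-like cells (0.01). In mature-like cells 0 of 10 members passed the fold, against 0.658% of all genes. The ipsilateral over contralateral log2 ratio of CPM + 5 was 0.05 for Gpr37, 0.01 for Lpar1, -0.07 for S1pr5, -0.01 for Adora1 and -0.25 for Gprc5b. Gpr17 did not pass the fold in any stage: its ratios were 0.01 in precursor-like (interval -0.06 to 0.08), -0.27 in committed-like (-0.32 to -0.21), -0.33 in newly formed-like (-0.42 to -0.24) and 0.19 in mature-like cells (0.03 to 0.44).

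In precursor-like cells 1 of 10 members passed the fold, against 3.23% of all genes, 1.72% in the same direction. This was S1pr1, at 24.5 CPM (19.5 to 30.4) contralaterally and 12.7 CPM (9.97 to 15.9) ipsilaterally, a log2 ratio of -0.74. Ednrb, with a ratio of -0.49, and Adora1, with -0.30, did not pass. The Hes5-led cluster held 218 of 312 contralateral and 194 of 406 ipsilateral precursor-like cells. With each of the 3 clusters weighted by its cells in the libraries together, S1pr1 had a ratio of -0.44 and passed no more, and Ednrb and Adora1 had -0.15 and 0.05. This weighting was added after the data were seen, and the part of the mix in the differences was not tested. The 8 astrocyte markers summed to 701 CPM contralaterally, with Aldh1l1 and Gfap at 0, and to 531 CPM ipsilaterally, with UMIs of all 8; S1pr1 and Ednrb are also astrocyte genes in these libraries, and the part of these markers was not tested.

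In committed-like cells 2 of 7 members with enough UMIs passed, both lower ipsilaterally, against 6.52% of all genes and 3.32% in that direction. Gprc5b had 25 UMIs contralaterally and 22 ipsilaterally, a ratio of -0.95, and Lpar1 had 23 and 15, a ratio of -1.15. In the contralateral library 1 cell held 10 of these Lpar1 UMIs and 1 cell held 7 of the Gprc5b UMIs, and without the top cell of each library the ratios were -0.72 and -0.74. All 11 mature markers had UMIs in committed-like cells of both libraries, and their summed level was 1127 and 614 CPM, moving in the same direction as Lpar1 and Gprc5b; their part in the difference was not tested. With barcodes called as doublets by Scrublet removed before clustering, 7 members passed, all lower ipsilaterally. Committed-like cells then had 83.9 CPM of Lpar1 contralaterally, against 16.7 CPM with these barcodes kept, and 4.33 CPM ipsilaterally, against 4.74 CPM. The removal was uneven between the libraries. In the mixed cluster with mature and committed markers, the calls covered 3 of 64 contralateral and 72 of 81 ipsilateral cells. The part of this uneven removal in the count of 7 was not tested.

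In newly formed-like cells 4 of 9 members passed, all lower ipsilaterally, against 7.15% of all genes and 3.69% in that direction. Ednrb had 85 and 79 UMIs (ratio -0.98), Adora1 32 and 23 (-1.09), Adgrg1 55 and 58 (-0.79) and Gprc5b 46 and 56 (-0.60). With 36 contralateral cells the stage is small, and 1 cell held 24.7% of the contralateral Ednrb UMIs, 31.2% of those of Adora1 and 23.9% of those of Gprc5b. Without the top cell of each library Gprc5b no longer passed (-0.52), while the ratio was -1.01 for Ednrb, -0.96 for Adora1 and -0.76 for Adgrg1. All 8 precursor markers had UMIs in these cells, their summed level was 1418 and 940.5 CPM, and Pdgfra, the defining precursor receptor, stood at 133 and 50.7 CPM; their part in the difference was not tested. Without the 6 contralateral and 5 ipsilateral cells that held at least 3 Pdgfra UMIs, 2 members passed, Adgrg1 as lower and Gprc5b (0.63) as higher ipsilaterally. The ratio was then -0.34 for Ednrb and -0.27 for Adora1.

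Outside the lineage, 3 of 10 members passed in astrocyte-like cells (9.11% of all genes, 4.79% higher and 4.32% lower ipsilaterally), 4 of 8 in endothelial-like cells (8.46%, 5.95% higher) and 0 of 10 in neuroblast-like cells (0.95%). Gpr17 and Lpar1 were higher ipsilaterally in both astrocyte-like and endothelial-like cells, Gpr37l1 and Ednrb in endothelial-like cells alone, and Adora1 was lower in astrocyte-like cells. Gpr17 had 9 and 74 UMIs in astrocyte-like and 17 and 95 UMIs in endothelial-like cells, but 1 cell held 62.2% and 65.3% of these ipsilateral UMIs. Without the cell with the most UMIs in each library it stood at 5.50 and 23.0 CPM and at 7.95 and 27.4 CPM, still past the fold, whereas Ednrb in endothelial-like cells had a ratio of -0.21 and was not. The 7 committed markers moved the same way, with summed levels of 666 and 830.0 CPM in astrocyte-like cells, where Bmp4 was at 0 contralaterally, and 296 and 507 CPM in endothelial-like cells. The 11 mature markers did too, with 1639 and 2354 CPM in astrocyte-like and 1516 and 2592 CPM in endothelial-like cells, and the part of both lists in these differences was not tested. Over all kept cells 1 of 10 members passed, against 1.45% of all genes, 1.23% lower ipsilaterally. This was S1pr1, at 48.6 and 25.6 CPM. The share of endothelial-like cells, its main source, was 9.62% and 5.15%. Its level was 565 and 567 CPM in endothelial-like, 458 and 394 CPM in astrocyte-like and 24.5 and 12.7 CPM in precursor-like cells. The part of the mix of cells in this difference was not tested.

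**Figure D5:**
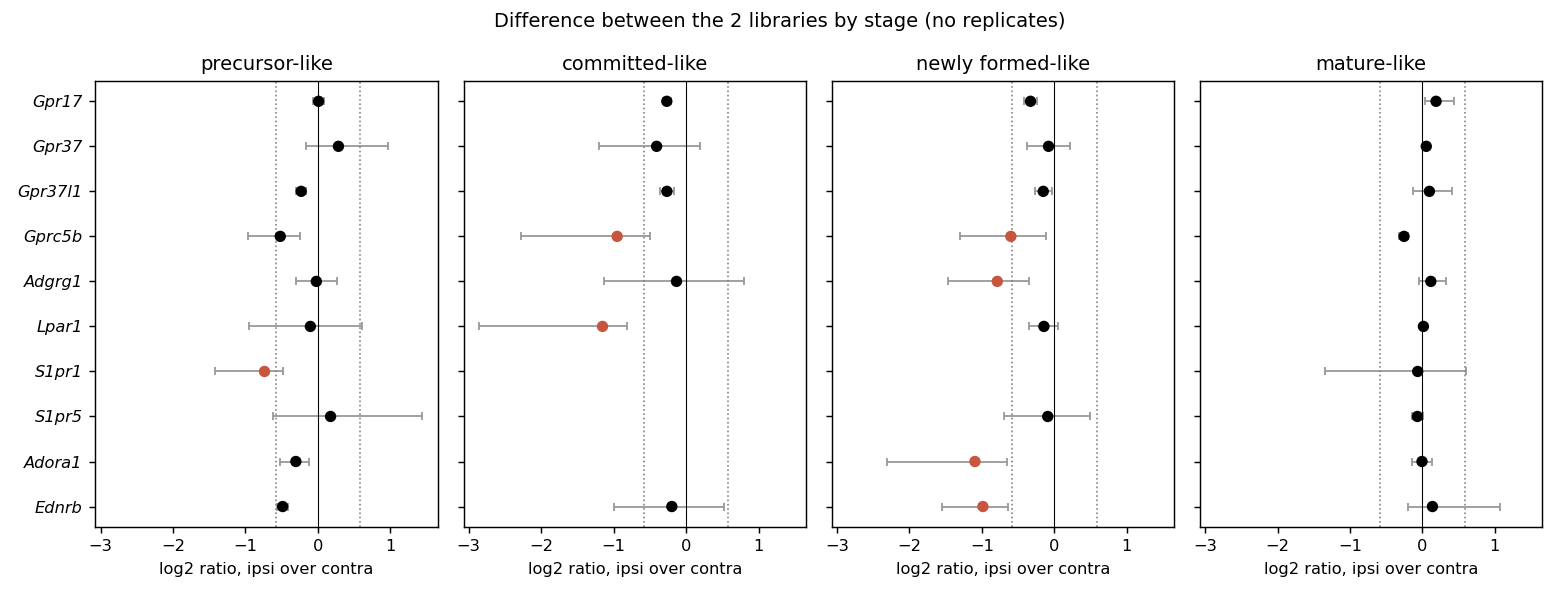
Log2 ratio, ipsilateral over contralateral, of CPM + 5 (x axis, points) for each gene (y axis) in the 4 stages, for genes with at least 20 summed UMIs; grey bars are exact 95% counting intervals of the ratio without the added 5 CPM, dotted lines mark 1.5-fold, and red points lie past it. No red point is in mature-like cells, and all 7 red points, 4 of them in newly formed-like cells, are lower ipsilaterally.

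Genes of GPCR signalling around these receptors were counted in 7 lists. In mature-like cells, where 0.658% of all genes passed 1.5-fold between sides, the list of G beta and gamma subunits was the only one with a member past the fold, 1 of 11 measured: Gng3, at 13.2 and 26.7 CPM. Enpp2, the gene of the secreted enzyme that makes lysophosphatidic acid, had 347 and 359 CPM in precursor-like, 825 and 737 CPM in committed-like, 851 and 879.5 CPM in newly formed-like and 1540.3 and 1767 CPM in mature-like cells, so it was highest in the same stage as Lpar1. The endothelin genes Edn1 and Edn3 had at most 9 UMIs in any stage of either library, whereas endothelial-like cells had 701 and 803 CPM of Edn1 and 64.6 and 54.7 CPM of Edn3. Ece1, the gene of an endothelin-converting enzyme, had 54.6 and 63.3 CPM in newly formed-like cells, above each other stage, and 0.947 and 1.20 CPM in mature-like cells. Psap, the gene of prosaposin, was found in every stage at 298 to 608 CPM.

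In precursor-like cells, where 3.23% of all genes passed, 2 of 8 close relatives of the receptors with enough UMIs did so, Lpar3 higher (3.25 and 8.58 CPM) and Adora2b lower (28.6 and 15.96 CPM), and the median ratio of the 8 was -0.22 against -0.05 over all genes. Among enzymes of ligands 1 of 17 passed (Alox5ap, lower), among G beta and gamma subunits 1 of 11 (Gng11, lower, 42.8 and 24.0 CPM), among RGS proteins 1 of 10 (Rgs4, lower), and 0 of 10 G alpha subunits, 0 of 14 cyclases and phosphodiesterases and 0 of 7 kinases and arrestins. In committed-like cells, where 6.52% of all genes passed, Ednra, the endothelin A receptor, was the 1 of 5 relatives that passed, at 36.2 and 20.9 CPM. Gng11 was lower (28.3 and 8.85 CPM), 1 of 11 G beta and gamma subunits. Plppr1 (30.4 and 52.8 CPM), 1 of 13 enzymes of ligands, and Adcy5 (10.1 and 21.2 CPM), 1 of 10 cyclases and phosphodiesterases, were higher. Of G alpha subunits 0 of 10 passed, of RGS proteins 0 of 6 and of kinases and arrestins 0 of 4. In newly formed-like cells, where 7.15% of all genes passed, Rgs16, a brake on G alpha subunits, was higher ipsilaterally at 40.6 and 111.6 CPM. So were the receptor kinases Grk6 and Grk4 (6.24 and 16.5, 2.34 and 9.04 CPM) and the phosphodiesterase Pde7a (31.2 and 51.5 CPM), whereas Pde8a and Gng10 were lower. By list, 1 of 6 RGS proteins and 2 of 4 kinases and arrestins were higher. Of 9 cyclases and phosphodiesterases 1 was higher and 1 lower, and of 11 G beta and gamma subunits 1 was lower. Among relatives 0 of 4 passed, among enzymes of ligands 0 of 13 and among G alpha subunits 0 of 9. The contralateral Grk4 level was at the floor of 3 counts in these 36 cells, 2.34 CPM, and that of Grk6 was near it. Of the G alpha subunits 0 passed in any stage, and Gnas, the stimulatory one, had 693 to 1179.7 CPM over the stages.

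Genes with profiles most like those of the receptors were found by Pearson correlation of log2(CPM + 5) over 12 profiles, 6 classes in 2 libraries with at least 50 cells each, among 6405 genes. Newly formed-like cells, 36 of them contralaterally, were too few for this rule, so the profiles do not cover that stage. The profiles share libraries and depth, so r is a description. Gpr17 was most alike Neu4 (r = 0.985), Opcml (0.985), Tnr (0.983), Igsf9b (0.979) and Susd4 (0.978). Neu4 and Tnr were among the markers used to name committed-like cells. Gpr37 was most alike Efhd1 (0.994) and Slc48a1 (0.992), Lpar1 alike Tppp3 (0.989) and Cyp2j12 (0.988), S1pr5 alike D7Ertd443e (0.994) and Arsg (0.993), and Gprc5b alike Nrbp2 (0.975) and Insig1 (0.968). Gpr37l1 was most alike Lsamp (0.989) and Bcan (0.988), Ednrb alike Cspg5 (0.975) and Dusp18 (0.971), and S1pr1 alike Mcc (0.976) and Cyp2d22 (0.976). Adora1 was most alike Masp1 (0.959) and Sppl2b (0.955).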

How the data were processed

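RNA of single cells from 1 contralateral and 1 ipsilateral library was measured as UMI counts per gene and barcode, which the authors deposited as count matrices; Cell Ranger 3.1.0 and mm10 are named in the submitters' processing notes, and the gene annotation they counted on is not given in the sources used here. Barcodes with under 500 genes or over 15% mitochondrial UMIs were left out. Kept cells had a median of 14595 UMIs contralaterally and 19851 ipsilaterally. Counts were scaled to 10000 per cell and logged only for clustering (scanpy 1.11.5, 2000 variable genes without the 10 receptors, 30 principal components, 15 neighbours, Leiden resolution 1 with leidenalg 0.10.2, seed 0), and lineage clusters were clustered again. A cluster was named where its best marker list had a mean scaled score of at least 0.3 with at least 3 markers at that level, and stayed unnamed where a class or stage that is not its neighbour also reached 0.3 (for classes, and 0.6 of the best), where its leading 10 genes held more markers of another class, or where its depth was low with none of its own among them; the values of these cut-offs were chosen with the data in view. The receptors, the marker and pathway lists and the tests were chosen with earlier results of these data known.

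UMIs were summed per class and library and given as CPM with exact Poisson intervals, shares of cells with exact Clopper-Pearson intervals, and log2 ratios of CPM + 5, called past 1.5-fold for genes with at least 20 summed UMIs over both libraries. Intervals cover counting error only. Shares were taken after thinning each cell to 5000 UMIs without replacement. Of the signalling lists, counts are given for each list, and by name the 2 genes of a list with the largest ratio or the highest level in a stage, plus ligand and enzyme genes (Edn1, Edn3, Ece1, Enpp2, Psap) chosen after their values were seen; Adrbk1 and Adrbk2 were not matched by symbol. Scrublet called 14 contralateral and 101 ipsilateral barcodes at thresholds of 0.274 and 0.154; they were kept, since the separate mixed cluster of 145 cells, which held 3 and 72 of these calls, was left unnamed. Loci come from GENCODE M21 and promoter windows from RefSeq on GRCm38.p6, and the share of 31-base words in other genes' transcripts checked for shared reads. The scripts were tested on simulated data. Alternatives changed the doublet, cell and count filters, the clustering, the added CPM and the scaling, and further alternatives (the mix of clusters, leaving out a cluster, the cell with most UMIs of a gene, or cells with Pdgfra) were added after seeing the data. The profile likeness of Adgrg1 is not reported here.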

Additional observations from a re-analysis of the deposited data

Results flagged for a closer look

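Lpar1 and Ednrb passed 1.5-fold in opposite directions in different classes of cells, and with 1 library per side the difference was not tested. For Lpar1 the log2 ratio of ipsilateral over contralateral CPM + 5 was -1.15 in committed-like cells (23 and 15 UMIs), 0.82 in astrocyte-like cells (46 and 82 UMIs) and 1.27 in endothelial-like cells (15 and 36 UMIs). For Ednrb it was -0.98 in newly formed-like cells (85 and 79 UMIs) and 0.93 in endothelial-like cells (15 and 27 UMIs). Without the cell with the most UMIs of the gene in each library, Lpar1 had ratios of -0.72, 1.19 and 1.34 in these 3 classes, and Ednrb had -1.01 and -0.21. In endothelial-like cells 1 cell held 86.7% of the contralateral and 63.9% of the ipsilateral Lpar1 UMIs, and 1 cell held 81.5% of the ipsilateral Ednrb UMIs.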

How the results depend on the processing

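The count of members with the same highest stage in both libraries was 10 under every alternative run, and the count past the fold in mature-like cells was 0 under every alternative run, while Leiden resolution 0.5 formed neither a committed-like nor a newly formed-like class and gave no value there. In precursor-like cells the count of 1 became 3 with per-cell marker calls, of which Gpr37 (0.76) and Lpar1 (0.68) were higher ipsilaterally, 2 with 1 CPM added, and 0 with 20 CPM added or with the same mix of clusters. In committed-like cells the count of 2 became 7 with Scrublet calls removed, 4 without the cell filter or without a minimum of UMIs, 1 with the mean of per-cell CPM, and 0 with 20 CPM added or at least 100 summed UMIs. In newly formed-like cells the count of 4 became 2 with Scrublet calls removed, with 20 CPM added, and without cells with at least 3 Pdgfra UMIs. It was 4 with each library clustered alone, but Gpr37 (0.84) and S1pr5 (0.87) were then higher, and Adgrg1 (-0.91) and Ednrb (-1.13) lower, ipsilaterally. Gprc5b in newly formed-like cells reversed to 0.38 with each library clustered alone, to 0.070 with the mean of per-cell CPM and to 0.63 without the cells with at least 3 Pdgfra UMIs. The last of these passed the fold as higher ipsilaterally. The cause of these changes was not tested. Per-cell marker calls placed 2433 of 2532 cells in the same stage as the clusters, and 122 of 2677 lineage cells lay within 0.1 of another stage. No paired analysis was possible because each side has 1 library. The 36 contralateral newly formed-like cells and the low counts of several members in committed-like cells limit precision.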

Other observations

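Unnamed cells, 85 contralateral and 134 ipsilateral ones that include the mixed cluster with mature and committed markers, held 21.7% of contralateral and 15.9% of ipsilateral Gpr17 UMIs in kept cells. They held 11.7% and 9.11% of Gpr37 UMIs. Their median depths were 38066 and 38623 UMIs.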
